A study of Rattus norvegicus with 30 samples.

Results

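The nuclear genes of respiratory complexes II, III, IV and V were followed in 30 polyA RNA-seq libraries of rat dorsal hippocampus. The members are all rows of the count table whose symbol is Sdha to Sdhd or Cyc1, or begins with Uqcr, Cox4 to Cox8, or Atp5, and whose counts summed over the 30 libraries reach 300. Of 17455 genes in the table, 47 had such a symbol and 43 reached that sum: 4 of complex II, 9 of complex III, 13 of complex IV and 17 of complex V. All 43 also passed the low-count filter, which kept 12547 genes. Of the other 4, Cox8b had a summed count of 168 and Cox6a2 of 76, both isoforms known from heart and skeletal muscle. Cox8c and the pseudogene Cox6c-ps1 had 0 counts, where a total of 551 M counts allows up to 3 (M for mega). The members nearest above the limit were Atp5pb with 809, Cox6b2 with 821 and Cox4i2 with 1256 counts.

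The study set TgF344-AD rats, labelled alzheimer, against wildtype rats, each fed standard chow or a western diet, in both sexes. TgF344-AD is a transgenic line that expresses mutated human genes of familial Alzheimer's disease, among them APP, under the mouse prion promoter. The 8 groups are male_wildtype_chow, male_wildtype_western, male_alzheimer_chow, male_alzheimer_western, female_wildtype_chow and female_alzheimer_chow with 4 libraries each, and female_wildtype_western and female_alzheimer_western with 3 each. Every group holds libraries of both cohorts that the labels name, ages are not given in the labels used here, and replicate numbers are the running numbers 1 to 30 of the titles. Totals ran from 13.9 to 31.4 M counts with a median of 17.8 M. The labels do not say in words that each library is a separate animal, so p-values set group differences against the variation between libraries.

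Respiratory complexes sit in the inner mitochondrial membrane. Complex II (succinate dehydrogenase) feeds electrons from the citric acid cycle into coenzyme Q. Complex III (the cytochrome bc1 complex) passes them to cytochrome c, complex IV (cytochrome c oxidase) passes them to oxygen, and complex V (ATP synthase) uses the proton gradient built along the way to make ATP. Neurons depend on this chain for most of their ATP. Except in complex II, each of these complexes also holds subunits encoded by the mitochondrial genome, which are not analysed here. Their nuclear partners are scattered over the genome and are known targets of the transcription factors NRF1, GABP of the ETS family, YY1 and ERR alpha. In bulk tissue, fewer cells of a type and less RNA per cell cannot be told apart.

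The RefSeq promoter table of assembly GRCr8 had a single entry for 36 of the 43 members, 1 of them (Atp5md) under another symbol. These 36 lie on 17 chromosomes, with 1 member on X (Cox7b). The other 7 members had no entry or more than 1, and were left out. Each window has 300 bases, from 250 before to 50 after the annotated start. Cox8a, Uqcrq and Atp5po are shown because they were among the members called lower in alzheimer libraries and hold matches, and Sdha because it was not called and holds the most matches to 1 motif. Capitals mark matches on either strand to the letters searched, which were GCGCANGCG for NRF1, CCGGAAGT for the ETS family, AAGATGGC for YY1 and TCAAGGTCA for the ERR family. No source names the genome build behind the counts, so the coordinates are those of the promoter table alone.
Cox8a, chr1:213833574-213833873, minus strand: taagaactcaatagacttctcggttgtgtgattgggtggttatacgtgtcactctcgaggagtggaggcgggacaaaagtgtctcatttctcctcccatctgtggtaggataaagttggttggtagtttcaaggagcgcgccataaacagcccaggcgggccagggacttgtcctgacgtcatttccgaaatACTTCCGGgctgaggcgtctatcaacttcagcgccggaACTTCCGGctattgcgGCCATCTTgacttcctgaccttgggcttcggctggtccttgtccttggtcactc
Uqcrq, chr10:38089929-38090228, minus strand: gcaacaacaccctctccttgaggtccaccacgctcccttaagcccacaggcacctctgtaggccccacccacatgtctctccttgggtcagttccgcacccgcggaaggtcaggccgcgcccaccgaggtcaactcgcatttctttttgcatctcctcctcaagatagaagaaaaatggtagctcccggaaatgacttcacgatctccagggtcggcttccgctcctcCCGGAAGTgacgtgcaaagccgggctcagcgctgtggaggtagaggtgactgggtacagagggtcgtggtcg
Atp5po, chr11:44657434-44657733, minus strand: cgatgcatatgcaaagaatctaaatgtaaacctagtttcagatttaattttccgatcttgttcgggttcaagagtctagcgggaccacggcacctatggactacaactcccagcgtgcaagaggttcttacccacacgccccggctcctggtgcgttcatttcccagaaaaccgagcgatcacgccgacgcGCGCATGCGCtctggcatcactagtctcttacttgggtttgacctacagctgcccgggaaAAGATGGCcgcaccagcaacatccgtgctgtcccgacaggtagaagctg
Sdha, chr1:30764303-30764602, plus strand: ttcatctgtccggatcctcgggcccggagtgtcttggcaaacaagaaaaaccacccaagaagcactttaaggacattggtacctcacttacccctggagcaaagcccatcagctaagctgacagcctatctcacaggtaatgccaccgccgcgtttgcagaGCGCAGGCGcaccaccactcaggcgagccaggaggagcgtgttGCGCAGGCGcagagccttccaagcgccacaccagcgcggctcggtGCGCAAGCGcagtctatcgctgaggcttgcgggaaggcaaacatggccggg

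The Cox8a window holds 2 matches to the ETS letters and 1 to the YY1 letters, and that of Uqcrq holds 1 ETS match. In Atp5po the NRF1 letters match on both strands at overlapping positions, counted as 2, beside 1 YY1 match. The Sdha window holds 3 NRF1 matches. Matches to different motifs overlapped in 0 of the 36 windows.

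Over the 36 windows, the NRF1 letters were found in 9 (25%), against 5.8% of all 33469 promoters of the table. ETS letters were found in 5 members (13.9%, against 3.81% of all), YY1 letters in 7 (19.4%, against 3.17%) and ERR letters in 2 (5.56%, against 0.433%). At least 1 of the 4 was present in 18 of 36 members (50%) and in 12% of all promoters. All promoters here means every window of the table, not only those of tested genes. They were not matched to the members for expression or GC content. The median GC content was 56.5% in the members and 51.7% over all windows. By genotype call, 7 of the 13 called members with a window held at least 1 match, and 11 of the 23 not called. By motif, NRF1 letters were in 1 called member (Atp5po) and 8 not called, and ETS letters in 4 and 1. YY1 letters were in 4 called and 3 not called, and ERR letters in 0 and 2. A match is a run of letters and was not tested as a binding site.

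Genotype was the factor with calls among these genes. In alzheimer libraries 16 of the 43 members fell and none rose, against a background of 3.89% of all tested genes called lower and 4.14% called higher (edgeR's quasi-likelihood test, Benjamini-Hochberg adjusted p under 0.05 over all 12547 genes). The falls lay in complex IV (7 of 13 members), complex V (6 of 17) and complex III (3 of 9). In complex II none of 4 members was called by edgeR, DESeq2 or limma-voom, and 1 (Sdhc) was lower at an unadjusted p under 0.05. Each fall was small, from 4.91% to 10.3% with a median of 6.29%. Of all 43 members, 40 had a log2 fold change below 0 and 29 were lower at an unadjusted p under 0.05, a level that 22.3% of all tested genes reached in either direction. The median log2 fold change of the members was -0.061, and that of all tested genes was 0.00203 with 48.9% of genes below 0.

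**Figure D1:**
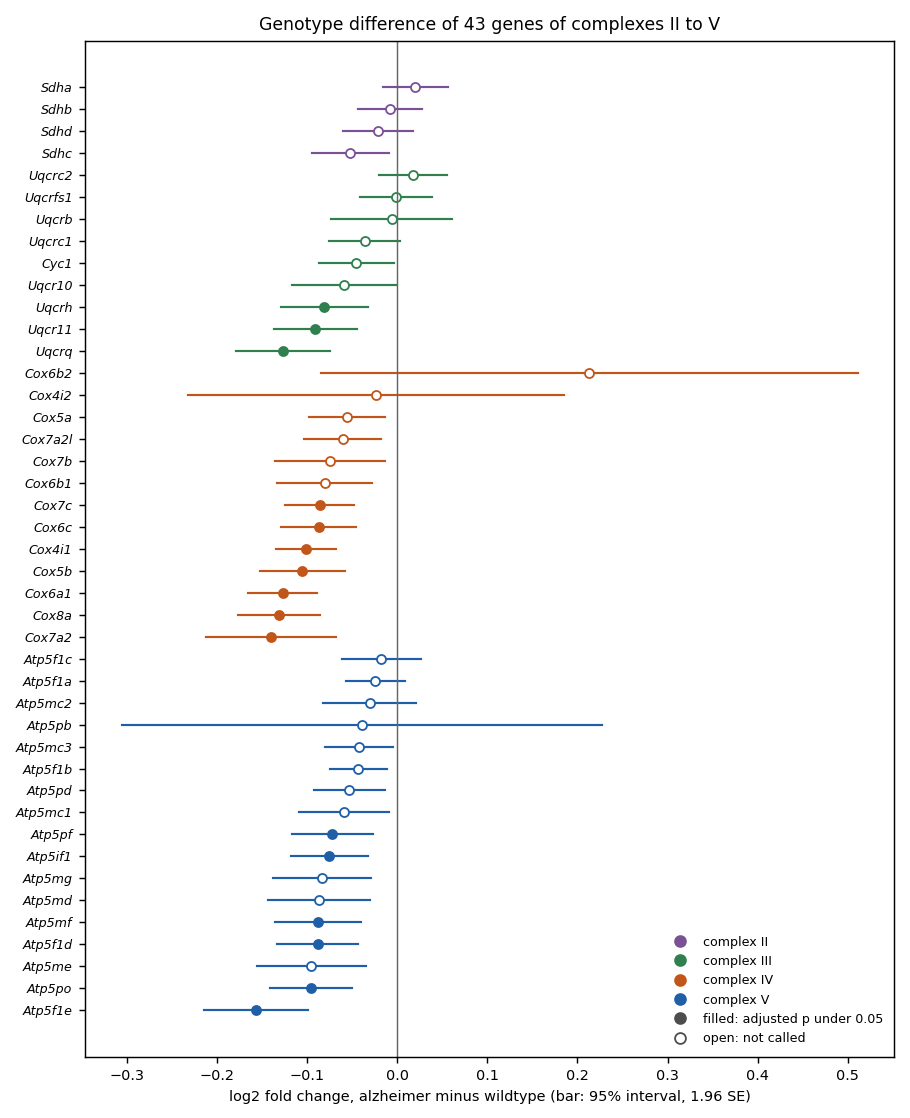
Log2 fold change of each of the 43 members between alzheimer and wildtype libraries (x axis), ordered within complexes II to V (y axis), with 95% intervals as bars and filled points for an adjusted p under 0.05. The 16 filled points all lie left of 0, none of them is in complex II, and Cox6b2, Cox4i2 and Atp5pb have the widest intervals.

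The 16 calls depended on the libraries used. Within cohort 1 alone (14 libraries) no member was called, with 40 of 43 below 0, 17 at an unadjusted p under 0.05 and a median of -0.066, in a fit that called 72 genes in all. Within cohort 2 alone (16 libraries) 10 members were called, with 38 of 43 below 0 and a median of -0.062. Leaving out male_alzheimer_chow replicate 8, which stood above the other 3 libraries of its group in many of these genes, raised the count to 25. Without the 3 libraries highest in choroid plexus markers the count was 12.

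In complex II, Sdha encodes the flavoprotein that oxidises succinate. Its level was 332 CPM at the lowest, 351 at the median and 373 at the highest of 15 wildtype libraries (CPM, counts per M after TMM scaling), and 338, 354 and 374 CPM in 15 alzheimer libraries. The genotypes overlapped over nearly their whole range. The log2 fold change was 0.020 ± 0.0185 (SE; edgeR adjusted p = 0.585), with a 95% interval from -0.017 to 0.056. Sdhb, the iron-sulfur subunit, had a log2 fold change of -0.0082 (95% interval -0.044 to 0.028). The membrane anchors Sdhc and Sdhd bind coenzyme Q and haem. Sdhc was at -0.052 ± 0.0219 (adjusted p = 0.142), with 141, 147 and 160 CPM as lowest, median and highest wildtype library and 134, 142 and 156 in alzheimer libraries. In cohort 2 alone Sdhc was at -0.10 (adjusted p = 0.0439) and in cohort 1 alone at 0.0046. Without male_alzheimer_chow replicate 8, 1 complex II member was called. Sdhd was at -0.021 (95% interval -0.060 to 0.017).

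In complex III, none of the 4 members that carry electrons or form the core was called. These are Cyc1 (cytochrome c1), Uqcrfs1 (the Rieske iron-sulfur protein) and the core proteins Uqcrc1 and Uqcrc2. Their log2 fold changes were -0.046 for Cyc1, -0.0019 for Uqcrfs1, -0.036 for Uqcrc1 and 0.017 for Uqcrc2, with adjusted p-values of 0.194, 0.973, 0.288 and 0.67. Uqcrc2, with the highest log2 fold change of the complex, had 227, 238 and 268 CPM as lowest, median and highest of the wildtype libraries and 226, 240 and 274 in the alzheimer libraries.

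Among the 5 small accessory subunits of complex III, 3 fell. Uqcrq, which contacts the cytochrome b subunit, had 101 CPM at the lowest, 111 at the median and 114 at the highest wildtype library and 93.3, 99.9 and 116 in alzheimer libraries. Of the 15 alzheimer libraries, 9 lay below the lowest wildtype library, and the highest one, male_alzheimer_chow replicate 8, lay above all wildtype libraries. Its log2 fold change was -0.13 ± 0.0267 (adjusted p = 0.00216), with 14 of 15 alzheimer libraries below the wildtype mean of their sex and diet. In Uqcr11 the lowest, median and highest levels were 273, 296 and 313 CPM in wildtype and 252, 279 and 298 CPM in alzheimer libraries. The fall of Uqcr11 was -0.092 ± 0.0235 on the log2 scale (adjusted p = 0.0119), lower in 13 of 15. Uqcrh, the hinge protein near cytochrome c1, had 101, 105 and 115 CPM in wildtype and 90.1, 103 and 109 CPM in alzheimer libraries.

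Uqcrh fell by 0.081 ± 0.0245 on the log2 scale (adjusted p = 0.0345, lower in 11 of 15). That call was lost in 12 of the 30 fits that left out 1 library. Uqcr10 (-0.059, adjusted p = 0.234) and Uqcrb (-0.0066, adjusted p = 0.944) were not called. Uqcrh and Uqcrb, like Cox7a2, Cox6c and the Atp5mc genes, belong to families with processed copies in mammalian genomes, and how the counting split reads between copies is not given, so their values are uncertain.

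Complex IV held 7 calls. Of its 10 subunits that are known as ubiquitous or as the main form in brain, 7 fell. Cox6a1, the brain and liver form of subunit VIa, was at 386 CPM in the lowest, 406 in the median and 447 in the highest wildtype library, against 354, 371 and 416 CPM in alzheimer libraries. By group, the males on chow had 397, 386, 406 and 406 CPM in wildtype and 365, 416, 368 and 371 CPM in alzheimer libraries. Males on the western diet had 412, 418, 429 and 437 CPM in wildtype and 374, 369, 400 and 371 CPM in alzheimer libraries. The male genotypes on western did not overlap, and on chow a single alzheimer library, replicate 8, lay above the wildtype ones.

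Females on chow had 415, 409, 447 and 402 CPM of Cox6a1 in wildtype and 382, 379, 388 and 382 CPM in alzheimer libraries. Females on western had 399, 404 and 402 CPM in wildtype and 354, 364 and 368 CPM in alzheimer libraries. In females the genotypes were apart on both diets. In all, 12 of 15 alzheimer libraries lay below the lowest wildtype library, and the log2 fold change of Cox6a1 was -0.13 ± 0.0197 (adjusted p = 4.8e-05, lower in 14 of 15).

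Cox4i1 is the main form of the subunit that binds ATP and through which oxidase activity is known to respond to it. It was called lower on chow, on western, in males and in females, which are overlapping splits of the same libraries. On chow no member was called in 19 of the 30 fits that left out 1 library. The lowest, median and highest Cox4i1 levels were 539, 562 and 589 CPM in wildtype and 492, 524 and 555 CPM in alzheimer libraries. All 15 alzheimer libraries were below the wildtype mean of their sex and diet, and 11 lay below the lowest wildtype library. The log2 fold change was -0.10 ± 0.0171 (adjusted p = 0.000158). Cox8a, a small transmembrane subunit, had 309, 331 and 364 CPM in wildtype and 282, 304 and 345 CPM in alzheimer libraries. Here too 11 of 15 alzheimer libraries were below the lowest wildtype one. Cox8a fell by 0.13 ± 0.0230 on the log2 scale (adjusted p = 0.000298, lower in 14 of 15).

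Cox7a2 had the largest log2 fold change of the called complex IV members, -0.14 ± 0.0370 (adjusted p = 0.0143). Its levels were 41.9, 47.1 and 53.3 CPM in wildtype and 37.0, 41.5 and 48.3 CPM in alzheimer libraries, with 8 of 15 below the lowest wildtype library. Cox5b, a zinc-binding subunit on the matrix side, had 176, 192 and 211 CPM in wildtype and 168, 175 and 192 CPM in alzheimer libraries as lowest, median and highest. It fell by 0.11 ± 0.0238 on the log2 scale (adjusted p = 0.00414), with 8 of 15 alzheimer libraries below the lowest wildtype one. The other calls were Cox6c at -0.087 and Cox7c at -0.086, and these and Cox5b were each lower in 14 of 15 alzheimer libraries. Not called were Cox6b1 (-0.081, adjusted p = 0.0565), Cox7b (-0.075, 0.14) and Cox5a (-0.056, 0.105), as well as Cox7a2l (-0.061, 0.0815), which is known to join complexes III and IV into supercomplexes. These 4 were also on the lower side, and 11 of the 13 complex IV members were lower at an unadjusted p under 0.05.

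The isoforms of restricted tissue use behaved less evenly at their low counts. Cox4i2, the oxygen-responsive form known from lung and from vessel-associated cells, had 1.28, 2.30 and 3.35 CPM as lowest, median and highest in wildtype and 1.53, 2.27 and 2.73 CPM in alzheimer libraries. Its log2 fold change was -0.023 with a 95% interval from -0.23 to 0.19, and its sign turned when library size was added to the fit. Cox6b2, the testis form of Cox6b1, had 0.791, 1.24 and 2.78 CPM in wildtype and 1.01, 1.55 and 2.36 CPM in alzheimer libraries. At 0.21 ± 0.152 (adjusted p = 0.44) it was the highest of the members, with an interval from -0.085 to 0.51. The interval of Cox4i2 includes a fall as large as that of Cox8a. That of Cox6b2 does not in the full fit, but at so low a count it sets no usable limit. In cohort 2 alone Cox6b2 was at 0.086 ± 0.227.

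**Figure D2:**
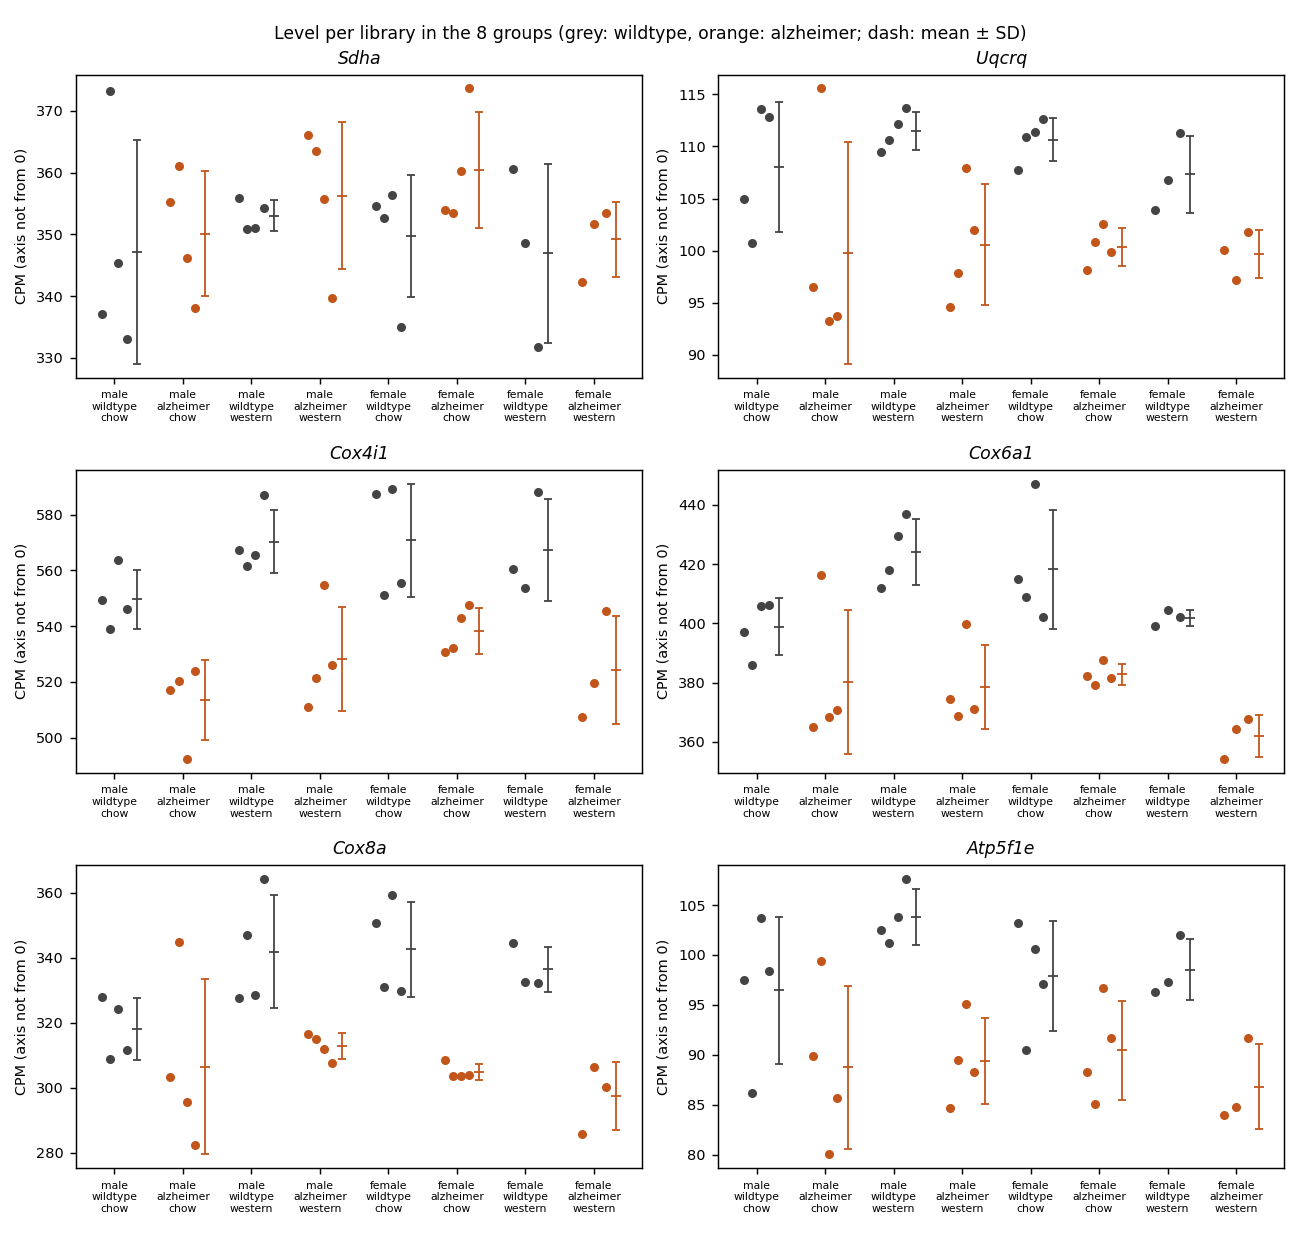
Level in CPM (y axes, which do not start at 0) of Sdha, Uqcrq, Cox4i1, Cox6a1, Cox8a and Atp5f1e in every library of the 8 groups of sex, genotype and diet (x axes), with the group mean ± SD beside the points. Sdha overlaps between genotypes in every pair of groups, Cox4i1 lies lower in the alzheimer group of every pair, and male_alzheimer_chow replicate 8 is the high orange point of its group in Uqcrq, Cox6a1, Cox8a and Atp5f1e.

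In complex V, the 6 calls lay in both stalks, among the small membrane subunits and in the inhibitor. The catalytic head is built of Atp5f1a and Atp5f1b, the subunits that hold the nucleotide sites. Atp5f1a was at -0.025 (95% interval -0.058 to 0.0084) and Atp5f1b at -0.044 (interval -0.075 to -0.012, adjusted p = 0.0923), so neither was called. The central stalk had 2 of 3 members called. Atp5f1e, its smallest subunit, had 86.2, 101 and 108 CPM as lowest, median and highest in wildtype and 80.0, 88.3 and 99.4 CPM in alzheimer libraries. It fell by 0.16 ± 0.0293 on the log2 scale (adjusted p = 0.000646, lower in 14 of 15), the largest fall among all 43 members.

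Atp5f1d fell by 0.089 ± 0.0230 (adjusted p = 0.013), from 192, 203 and 226 CPM in wildtype to 182, 192 and 208 CPM in alzheimer libraries as lowest, median and highest. The gamma subunit Atp5f1c, the shaft itself, was at -0.018 (interval -0.061 to 0.026). It had the smallest difference in complex V, at 194, 211 and 224 CPM in wildtype and 190, 211 and 224 CPM in alzheimer libraries. Of the 4 peripheral stalk members, which hold the head still, 2 fell. Atp5po, also known as OSCP, had 154, 166 and 172 CPM in wildtype and 139, 154 and 164 CPM in alzheimer libraries, and all 15 alzheimer libraries were below the wildtype mean of their sex and diet.

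Atp5po fell by 0.096 ± 0.0231 (adjusted p = 0.00741), and Atp5pf by 0.073 ± 0.0229 (adjusted p = 0.0443, lower in 14 of 15). The Atp5pf call was lost in 20 of the 30 fits that left out 1 library and under 6 of the 11 other settings. Atp5pd was at -0.053 (adjusted p = 0.103). Atp5pb, the b subunit, is among the members whose reads the counting may have divided with copies or other gene models, so its count may not be the level of the gene. Its mean over all libraries was 1.45 CPM, against 159, 191 and 118 CPM for its stalk partners Atp5po, Atp5pd and Atp5pf. The cause of that gap was not tested. Atp5pb had 1.49 ± 0.375 CPM in wildtype and 1.41 ± 0.405 CPM in alzheimer libraries (SD, n = 15 each), and its interval from -0.31 to 0.23 allows no statement of direction.

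The c ring turns as protons pass, and its peptide comes from 3 genes with the same mature product. Atp5mc1 was at -0.059, Atp5mc2 at -0.031 and Atp5mc3 at -0.043, and none was called. Of the 4 small membrane subunits near the dimer interface 1 fell, Atp5mf, at -0.089 ± 0.0243 (adjusted p = 0.0193). Its lowest, median and highest levels were 133, 137 and 154 CPM in wildtype and 123, 133 and 147 CPM in alzheimer libraries. Atp5me, Atp5md and Atp5mg had values close to that, at -0.095, -0.087 and -0.084, with adjusted p-values of 0.0515, 0.055 and 0.0563. Atp5if1, which blocks ATP hydrolysis when the gradient fails, fell by 0.076 ± 0.0218 (adjusted p = 0.0264, lower in 13 of 15), and this call was lost without female_wildtype_western replicate 22 (adjusted p = 0.0653). Without replicate 8 the complex V count was 11, and without female_alzheimer_chow replicate 16 it was 10.

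The members' levels were also averaged per library, as the mean log2 deviation from the all-library mean over the 40 members with at least 10 CPM. That mean was -0.033 ± 0.0447 in alzheimer and 0.033 ± 0.0351 in wildtype libraries (SD, n = 15 each). By complex the alzheimer and wildtype means were -0.0076 and 0.0076 in complex II, -0.025 and 0.025 in complex III, -0.048 and 0.048 in complex IV and -0.035 and 0.035 in complex V. The genotypes overlapped in all 4 complexes. In male_alzheimer_chow the mean over all 40 members was 0.039 in replicate 8, against -0.049 in replicate 3, -0.11 in replicate 25 and -0.098 in replicate 30.

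**Figure D3:**
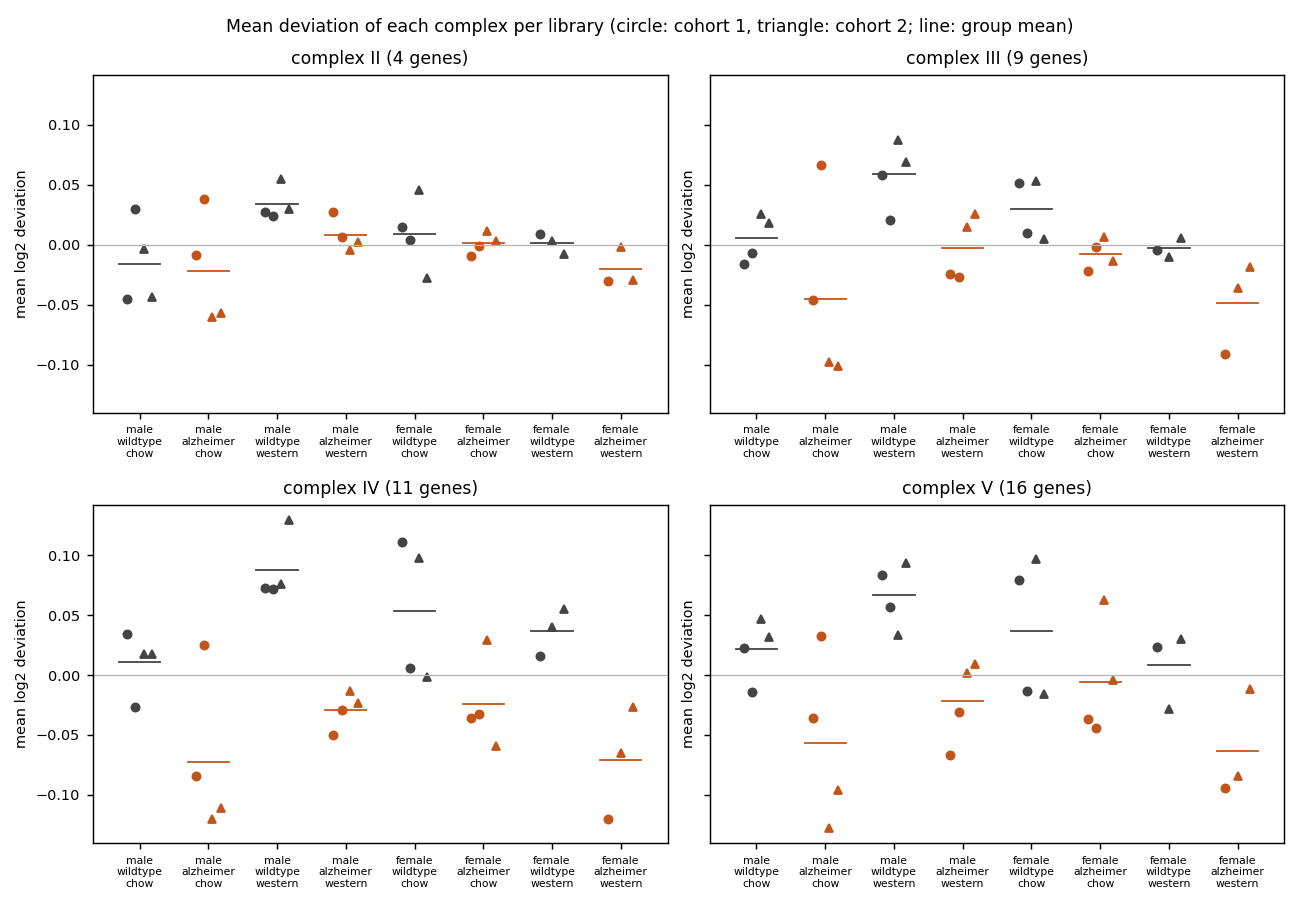
Mean log2 deviation of the members of each complex (y axes) in every library of the 8 groups (x axes), with circles for cohort 1, triangles for cohort 2 and a line at each group mean. In all 4 complexes the alzheimer group mean is below the wildtype mean of the same sex and diet in each of the 4 pairs, and complex II shows the narrowest spread between groups.

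Within the single strata the same direction prevailed with fewer calls. On chow 1 member was called lower (Cox4i1, -0.091, adjusted p = 0.0468), against 0.359% of all genes. On the western diet 8 were called lower (Cox4i1, Cox5b, Cox6a1, Cox6c, Cox7c, Cox8a, Atp5f1e and Atp5if1), against 1.67% of all genes. In males 3 were called (Cox4i1, Cox6a1 and Atp5f1e), against 0.566%, and in females 3 (Cox4i1, Cox6a1 and Cox8a), against 1.33%. Between group means, 31 of the 43 members, and all 16 of those called for genotype, were lower in alzheimer in each of the 4 combinations of sex and diet. The 16 were called on the mean over these same 4 combinations, so their direction within them is not separate evidence. The share over all genes was not counted.

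These stratum counts moved with single libraries. Without male_alzheimer_chow replicate 8 they were 5 on chow, 15 in males and 5 in females. Without replicate 25 of the same group or male_alzheimer_western replicate 28 the male count was 1, and without male_wildtype_chow replicate 7 it was 5. On chow, leaving out female_wildtype_chow replicate 20 gave 2, and in 19 of the 30 fits that left out 1 library no member was called. On western the count was 4 without female replicate 11, 17 or 22, and 5 without male replicate 2, 6 or 27 or female replicate 18.

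A difference in the genotype effect between diets or sexes was not detected. No member was called for genotype by diet or for genotype by sex by edgeR, DESeq2 or limma-voom. In edgeR no other gene was called either (0% of 12547 in both). For genotype by diet 34 of 43 members were below 0, with a median of -0.021, against 50.3% of all genes below 0. For genotype by sex 16 of 43 were below 0, with a median of 0.0064, against 49.2% of all genes. At an unadjusted p under 0.05 there was no member for genotype by diet and 1 for genotype by sex, Uqcrfs1 (0.089 ± 0.0409, adjusted p = 0.999). For Cox6a1, the western-minus-chow difference of the genotype log2 fold change was -0.059 ± 0.0394, and for Atp5f1e -0.084 ± 0.0586. The larger number of calls on western is therefore not shown to be a larger effect.

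Diet as a mean over sexes and genotypes left these genes without a call. The background was 0.00797% of genes called, and 1 member, Cox5a, had an unadjusted p under 0.05 (0.047 ± 0.0215 higher on western, adjusted p = 0.866). In wildtype and in alzheimer libraries taken alone no member was called for diet (0% of all genes in both) and none had an unadjusted p under 0.05. DESeq2 and limma-voom called none either. Sex gave no call among the members, against 0.837% of all genes. At an unadjusted p under 0.05 were Uqcrc2 (-0.051 ± 0.0195 in females, adjusted p = 0.191), Cox7c (-0.045, adjusted p = 0.27) and the sparsely counted Atp5pb (0.28, adjusted p = 0.334).

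The diet difference had opposite signs in the sexes. In males 40 of 43 members had a positive western-minus-chow log2 fold change, with a median of 0.047, and in females 40 of 43 had a negative one, with a median of -0.031. The contrast of the diet difference in females minus that in males was below 0 in 42 of 43 members, with a median of -0.079, against 51.6% below 0 and a median of -0.0044 over all genes. At an unadjusted p under 0.05 were 13 members (30.2%), against 14.7% of all genes. In cohort 1 alone 36 of 43 were below 0, with a median of -0.055, but females on western there had 1 library per genotype. In cohort 2 alone 42 of 43 were below 0, with a median of -0.11 and 16 at an unadjusted p under 0.05. None of the 43 passed the adjusted threshold in edgeR (background 1.23% of genes), while DESeq2 called 2. Within males alone 8 members were higher at an unadjusted p under 0.05 and within females alone 6 were lower, which is 18.6% and 14% of members against 11% and 9.56% of all genes. None was called by edgeR, DESeq2 or limma-voom in either sex (background 0.128% and 0.183%). Without male_alzheimer_chow replicate 8 the contrast had 5 calls, and without female_wildtype_chow replicate 13 it had 1.

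Uqcrc1 and Cyc1 of complex III, not called for genotype, had the smallest diet-by-sex p-values of that complex. Uqcrc1 in chow and western males was at 224, 224, 224 and 225 CPM and then 230, 226, 225 and 244 CPM in wildtype, and at 217, 233, 208 and 217 CPM and then 227, 228, 224 and 225 CPM in alzheimer libraries. In females it was at 240, 216, 241 and 216 CPM on chow and 218, 212 and 217 CPM on western in wildtype, and at 224, 226, 222 and 223 CPM on chow and 209, 204 and 212 CPM on western in alzheimer libraries. The female alzheimer libraries did not overlap between diets, and the wildtype ones did. The diet-by-sex value of Uqcrc1 was -0.14 ± 0.0400 (adjusted p = 0.0815), from 0.046 in males and -0.090 in females, and that of Cyc1 was -0.13 ± 0.0427 (adjusted p = 0.136).

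In complex V the corresponding values were -0.15 ± 0.0461 for Atp5pf (adjusted p = 0.0864) and -0.15 ± 0.0489 for Atp5mf (adjusted p = 0.111). In complex IV they were -0.11 ± 0.0396 for Cox6a1 (adjusted p = 0.158) and -0.075 ± 0.0342 for Cox4i1 (adjusted p = 0.297). The complex II values were -0.059 ± 0.0367 for Sdhb (adjusted p = 0.481) and -0.048 ± 0.0372 for Sdha (adjusted p = 0.592). By group means, 35 members were higher on western in males of both genotypes, 29 were lower on western in females of both genotypes, and 25 did both.

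Markers of other cell types moved in the same diet-by-sex contrast. Of all genes, 1.23% were called in this contrast in either direction. Called were Cldn5 (-0.26, adjusted p = 0.0107) of 7 endothelial markers and P2ry12 (-0.46, adjusted p = 0.0236) of 8 microglial markers. Of 6 markers of oligodendrocyte precursors Olig2 was called (0.53, adjusted p = 0.00113), and the signs of the others are not given here. All 7 endothelial markers were below 0 with a median of -0.22, all 8 oligodendrocyte markers with a median of -0.24, and 7 of 8 microglial markers with a median of -0.17. Neuronal markers had 6 of 10 below 0 and a median of -0.039. The part of these shifts in the members' diet-by-sex values was not tested.

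**Figure D4:**
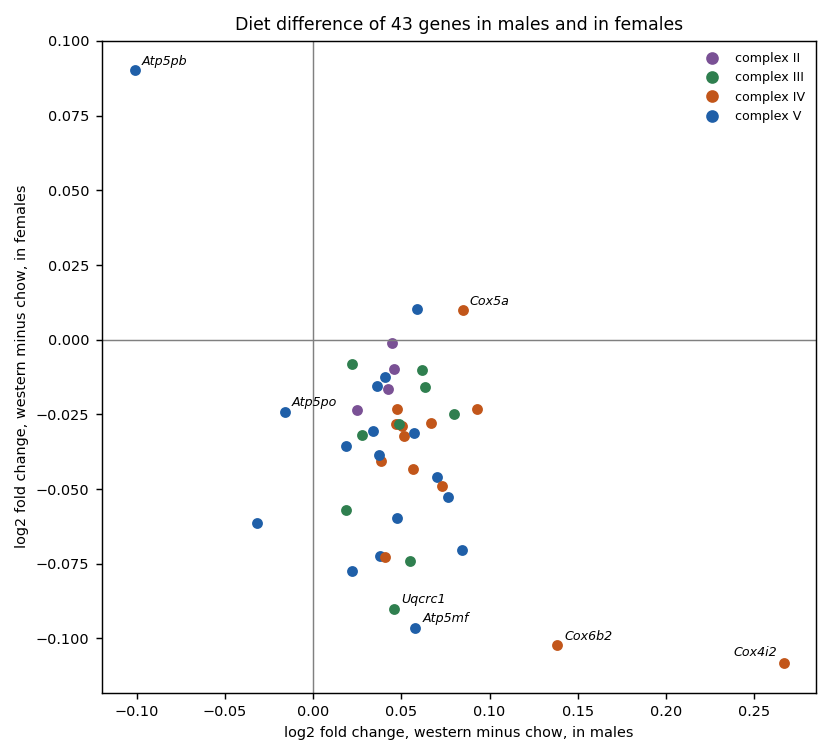
Log2 fold change between western and chow in males (x axis) and in females (y axis) for each of the 43 members, coloured by complex. Most points lie right of 0 and below 0, Atp5pb lies in the opposite corner, and Cox4i2 and Cox6b2, both of low count, lie farthest out.

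Complex I, the NADH dehydrogenase not counted among the members, had 12 of 35 tested subunits lower and none higher for genotype, with 31 of 35 below 0 and a median of -0.064. The lists of assembly factors and other mitochondrial genes lay on both sides of the 8.03% of all genes called in either direction. The share called was 16.7% in complex III assembly and 11.1% in the nucleotide and phosphate carriers. It was 9.09% in the cristae genes and 7.14% in the citric acid cycle. In complex IV assembly 5.26% were lower and 5.26% higher. Each of these shares rests on 1 gene. Of 19 tested assembly factors of complex IV, the copper carrier Cox17 fell (-0.16 ± 0.0298, adjusted p = 0.000767) and Cox18, which inserts a mitochondrially encoded subunit, rose (0.21 ± 0.0444, adjusted p = 0.00264). Lyrm7, which stabilises the Rieske protein before its insertion, rose by 0.14 ± 0.0422 (adjusted p = 0.033) as the call among 6 complex III assembly factors. Of 11 genes of the cristae junctions 1 was called, Micos13 (-0.10, adjusted p = 0.0295), and of 9 nucleotide and phosphate carriers 1, the ADP/ATP carrier Slc25a5 (-0.064, adjusted p = 0.0448). Of 14 citric acid cycle genes 1 was called, Suclg2 (-0.097, adjusted p = 0.0489), with 7 of the 14 below 0 and 7 above and a median of -0.0042. None of the 13 tested regulators of mitochondrial biogenesis, among them Nrf1, Gabpa and Esrra, was called, nor any of 10 genes of coenzyme Q synthesis, 6 electron carriers, 6 complex V and 2 complex II assembly factors. Over these 37 genes, 4 had an unadjusted p under 0.05, and DESeq2 and limma-voom also called 0.

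Some members share a start region with a gene on the other strand. In RefSeq's annotation, 10 of 36 members (27.8%) had an opposite start within 500 bases, against 9.3% of all promoters. The latter are not limited to tested genes. Cox4i1 lies 148 bases from Emc8, which was at -0.061 ± 0.0321 (adjusted p = 0.269) while Cox4i1 fell. Sdhd, not called, lies 96 bases from Timm8b, an import chaperone of the intermembrane space, which fell by 0.085 ± 0.0257 (adjusted p = 0.0357). Atp5md lies 178 bases from Pdcd11, which rose by 0.11 ± 0.0332 (adjusted p = 0.04) while Atp5md was at -0.087. Atp5pf lies 163 bases from Gabpa, which encodes the DNA-binding part of GABP and was at -0.051 (adjusted p = 0.449). By the rule used, partners read away from each other and do not overlap at these annotated starts. Strand use in the counting is not given, so any reads beyond these starts could not be assigned by strand.

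Cytosolic ribosomal protein genes moved in the same direction as the members. Of 75 tested cytosolic ribosomal protein genes, 59 were lower in alzheimer libraries and none higher, with a median of -0.093, and 74 were below 0 in the diet-by-sex contrast with a median of -0.12. Mitochondrial ribosomal proteins had 3 of 68 lower (4.41%), near the 3.89% of all genes, with a median of -0.038. The mean log2 deviation of the 70 cytosolic ribosomal genes with at least 10 CPM ran from -0.099 to 0.12 in wildtype (median 0.041) and from -0.10 to 0.035 in alzheimer libraries (median -0.050). What these genes share with the members was not tested.

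Some cell type markers were called for genotype as well, against 3.89% of all genes called lower and 4.14% called higher. Of 8 microglial markers 4 were lower, of 8 astrocyte markers 3 were lower and Gfap was higher, and of 8 pericyte and smooth muscle markers 3 were lower. Endothelial markers had 2 of 7 lower and neuronal markers 1 of 10 higher (Syt1). Of 6 excitatory neuron markers 1 was lower (Nrgn), of 8 interneuron markers 1 (Pvalb) and of 8 oligodendrocyte markers 1 (Mbp). No call fell among 6 markers of oligodendrocyte precursors, 6 of choroid plexus, 4 of ependyma and 2 of blood. Summed levels overlapped between genotypes. The neuronal sum ran from 8559 to 9639 CPM in wildtype and from 8461 to 9410 CPM in alzheimer, the oligodendrocyte sum from 8038 to 14380 and from 7981 to 13050, the interneuron sum from 629 to 759 and from 641 to 716, the microglial sum from 303 to 406 and from 291 to 362, and the pericyte sum from 146 to 193 and from 127 to 182. All tested markers of neurons and of excitatory neurons were counted in every library, and choroid plexus sums ran from 3.13 to 63.4 CPM over all libraries. The part of these shifts in the members' values was not tested.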

How the data were processed

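The study sequenced polyA RNA of dorsal hippocampus from rats, as 30 libraries. The authors deposited whole-number counts for each gene symbol and library. Per the submitters' processing notes cutadapt (version not given) and STAR 2.7.0a were used. For the counting tool, the strand setting, the build and the annotation, nothing is stated (not given in the sources used here).

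The model, in edgeR 4.0.16 under R 4.3.3, had a term for each of the 8 groups and a cohort term. The filter filterByExpr (minimum count 10, minimum total 15) kept 12547 of 17455 genes, library sizes were scaled by TMM, and 14 contrasts were tested two-sided with the quasi-likelihood F test. Adjusted p-values are Benjamini-Hochberg values over all tested genes, called under 0.05. The common coefficient of variation that edgeR calls biological, here between libraries, was 6.27%. Intervals are 1.96 SE to each side, and numbers of libraries lower compare each alzheimer library with the wildtype mean of its sex and diet. Alternatives used DESeq2 1.42.0, limma 3.58.1 (voom), sva 3.50.0, other filters and scalings, either cohort, and all libraries but 1. The script was tested on simulated data.

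The members, gene lists and alternatives were chosen with earlier results of these data known. Every member may be named. Fuller values are given for up to 4 called members per complex by size of change (and for Cox4i1, chosen after its values were seen), for the extremes of each complex, for minor isoforms and, with no call, for the smallest p. The limit of 10 CPM for complex means was set after seeing the data. Promoter windows are RefSeq's (GRCr8), and 7 members without a single entry were left out.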

Additional observations from a re-analysis of the deposited data

Results flagged for a closer look

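Single libraries that stood apart within their group of 4 were looked for in 126 sets of values by Dixon's 95% criterion, and 8 were found; chance flags about 1 in 20 groups. In male_alzheimer_chow, replicate 8 was high for Atp5mf (136.8 CPM, the other 3 from 125.3 to 126.6), Uqcrq (115.6 CPM, the others from 93.27 to 96.53) and Cox6a1 (416.4 CPM, the others from 365.1 to 370.9). In male_alzheimer_western, replicate 28 was at 185.5 CPM for Cox7c (the others from 178.1 to 178.8) and at 136.5 CPM for Atp5if1 (the others from 130.5 to 131). In female_alzheimer_chow, replicate 10 was at 308.5 CPM for Cox8a (the others from 303.6 to 303.8), and replicate 16 had a mean log2 deviation over all complexes of 0.03579 (the others from -0.03048 to -0.0207). In male_wildtype_western, replicate 27 had a complex IV mean of 0.1293 (the others from 0.07177 to 0.07623).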

How the results depend on the processing

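The following counts of called members moved by more than 1.5 times. In cohort 1 alone the counts were 0 for genotype, for its chow, western, male and female strata and for complexes III, IV and V. In cohort 2 alone they were 10 for genotype, 2 on western, 0 in females, 1 in complex II and 1 in complex V. DESeq2 gave 4 on chow, 8 in males, 6 in females, 2 for diet by sex and 10 in complex V, and limma-voom 4 on chow, 7 in males and 5 in females. Without a low-count filter the chow count was 0 and the male count 5, and the chow count was also 0 without the cohort term or with library size in the fit. Without the 3 libraries highest in choroid plexus markers the counts were 5 on western, 1 in males and 1 in complex III. Leaving out each library in turn gave 13 to 25 members for genotype, 0 to 5 for diet by sex, 0 to 5 on chow, 4 to 10 on western, 1 to 15 in males, 2 to 5 in females, 0 to 1 in complex II and 4 to 11 in complex V. The cause was not tested; each cohort alone has fewer libraries.

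Signs turned in members that were not called for genotype. The log2 fold change of Cox4i2 was 0.0186 with library size in the fit, and from -0.0572 to 0.0173 with 1 library left out. That of Uqcrb was 0.00879 in cohort 2 and 0.0165 without the choroid-high libraries (from -0.0286 to 0.00732 with 1 left out), and that of Atp5pb 0.0998 in cohort 2 (from -0.094 to 0.0148). In cohort 1, Sdha was at -0.00657, Uqcrfs1 at 0.00709 (from -0.00812 to 0.00643 with 1 left out), Sdhc at 0.00459 and Uqcrc2 at -0.00245. The labels name no pairing of libraries between groups, so no paired analysis was made. Differences of a few percent are near what these depths and group sizes resolve, and members at 1 to 3 CPM give no usable limit.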
